A study of Mus musculus with 6 samples.

Results

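Fgf3, Fgf4, Fgf5, Fgf8, Fgf15, Fgf17 and Fgf18 encode 7 of the secreted fibroblast growth factor (FGF) ligands used by the gastrulating mouse embryo. All probe sets annotated with 1 of these gene symbols were taken, which gave 14 probe sets of 45037 non-control probe sets, and 7 genes of 18193. They were measured in the node and primitive streak region of embryos at embryonic days 7.75 to 8, with 0 to 2 somites, on Affymetrix mouse whole-genome arrays. One group was labelled Wnt3a null and the other wild type for Wnt3a, both on a mixed C57BL/6 and 129/Sv background. Each array carried amplified RNA pooled from 3 stage-matched embryos of one genotype, with 3 arrays and 9 embryos per genotype. The comparison addresses which transcripts depend on Wnt3a, a Wnt ligand made in this tissue, before mutant embryos look abnormal. The 1 probe set of Wnt3a itself had 961, 761 and 1009 in null and 864, 1058 and 996 in wild-type pools, so the groups overlapped and the log2 difference was -0.10 (limma, unadjusted p = 0.664, adjusted p = 1.00). The labels do not describe the lesion of the null allele, and whether this probe set lies within it is not known here. The Wnt3a signal therefore neither bears out nor contradicts the genotypes, which rest on the labels alone.

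FGF ligands are secreted proteins that bind receptor tyrosine kinases of the Fgfr family together with heparan sulfate on the cell surface, and the receptors then activate the Ras and ERK kinase cascade. ERK activity induces transcription factors of the Etv family and feedback inhibitors such as Sprouty and Dusp proteins. In the gastrulating embryo, FGF signalling moves cells away from the primitive streak, keeps presomitic mesoderm immature and supports posterior growth of the body axis.

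Values are array signals on a linear scale, and differences are log2 null minus wild type from limma, with Benjamini-Hochberg adjustment over all 45037 probe sets and a threshold of 0.05. The median probe set had a mean signal of 71.5, and probe sets below this level are called dim here. Median signals per array ran from 73.6 to 86.1. Wild-type pool 1 stood apart in sex composition, with a Y-linked Eif2s3y signal of 4.31 against 1053 to 1788 on the other 5 arrays. The X-linked Xist signal was highest in that pool, at 7440, and next in null pool 1, at 5047, against 1871 to 2707 on the remaining arrays. Without wild-type pool 1 the brightest Fgf4 probe set differed by -0.66, against -0.68 with it. The Fgf8 probe set moved more, to -0.51 from -0.31, and the dim Fgf18 probe set changed sign, to 0.55 from -0.07. Of 12 measured markers of streak and nascent mesoderm 11 were at or above the median signal, as were 4 of 7 measured node and notochord markers, while Foxj1, Dand5 and Nog were dim. The 3 pools per genotype are labelled as biological replicates.

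Of the 14 ligand probe sets 8 were at or above the median signal, and these belonged to Fgf3, Fgf4, Fgf8, Fgf15 and Fgf17. Both Fgf5 probe sets, the Fgf18 probe set, 2 of 4 for Fgf4 and 1 of 2 for Fgf17 were dim. Fgf3, Fgf4 and Fgf15 are direct neighbours on chromosome 7, with no other measured protein-coding gene between them. Fgf5 lies on chromosome 5, Fgf18 on chromosome 11, Fgf17 on chromosome 14 and Fgf8 on chromosome 19, in the RefSeq annotation of GRCm38.p6.

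The sequence before the transcription start is shown for Fgf3 and Fgf4, which had lower values together, and for Fgf5, which went the other way. Each is the 250 bases upstream of the RefSeq start in GRCm38.p6, written 5′ to 3′ along the gene, and 4 of the 7 ligands had a matching entry.
Fgf3 (chr7:144838362-144838611, plus strand): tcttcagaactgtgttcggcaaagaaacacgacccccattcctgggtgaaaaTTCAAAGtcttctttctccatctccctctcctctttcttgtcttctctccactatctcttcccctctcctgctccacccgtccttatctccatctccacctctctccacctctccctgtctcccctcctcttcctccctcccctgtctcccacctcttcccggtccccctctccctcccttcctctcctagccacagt
Fgf4 (chr7:144861136-144861385, plus strand): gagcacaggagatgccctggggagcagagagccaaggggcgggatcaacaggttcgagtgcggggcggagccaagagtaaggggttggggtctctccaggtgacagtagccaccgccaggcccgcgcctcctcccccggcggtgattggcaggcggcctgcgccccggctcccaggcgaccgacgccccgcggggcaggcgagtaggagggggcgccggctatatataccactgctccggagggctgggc
Fgf5 (chr5:98253934-98254183, plus strand): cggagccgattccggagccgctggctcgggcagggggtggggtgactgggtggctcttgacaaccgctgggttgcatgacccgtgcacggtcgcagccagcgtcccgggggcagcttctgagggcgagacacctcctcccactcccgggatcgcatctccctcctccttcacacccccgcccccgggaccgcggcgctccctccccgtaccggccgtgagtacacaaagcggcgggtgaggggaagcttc
Capitals mark a match, on either strand, to the letters bound by the TCF and LEF factors of Wnt signalling. The letters searched were CTTTGAT (present in 3.21% of windows), CTTTGAA (present in 4.46%), CTTTGTT (present in 5.03%) and CTTTGTA (present in 3.2%), and no match overlapped another in the windows shown. Fgf3 had 1 match, to CTTTGAA on the opposite strand, beginning 198 bases before the start. Fgf4 and Fgf5 had 0 matches in these windows, and 14.8% of 32851 promoter windows of this length held at least 1. G and C made up 55.2% of the Fgf3 window, 71.2% of the Fgf4 window and 70.8% of the Fgf5 window, against a median of 52.4%. A match is a description of letters, and binding was not measured here.

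No ligand probe set passed the test. Limma called 0 of 14, with adjusted p from 0.975 to 1.00, where 0% of all probe sets were called lower and 0% higher. Without adjustment, 3 ligand probe sets had p under 0.05, of which 2 were lower and 1 higher, against 2.2% and 2.84% of all probe sets. Of all 14 ligand probe sets 13 had a lower mean log2 signal in null pools, with a median difference of -0.44 against 0.01 over all probe sets. The 8 at or above the median signal were all lower, but Fgf17 1421523_at reached that level through its wild-type pools alone, with a null mean of 70.1, and had to count as lower. The other 7, of Fgf3, Fgf4, Fgf8 and Fgf15, were at or above it in both genotypes, with differences from -0.68 to -0.31 and a median of -0.45. Of all 21550 probe sets at this level in both genotypes 48.5% were lower, with a median difference of 0.01. Among these 7, the groups did not overlap for 3, where 3.86% of all such probe sets were lower without overlap, and 6 were lower in all 3 pairs, against 15.1%. With Fgf17 included these counts were 4 of 8 and 7 of 8, against 4.04% and 15.2% of all probe sets whose mean over both genotypes reached the median. The 7 are not independent, since 3 report Fgf3 and 2 report Fgf4 in the same RNA.

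**Figure D1:**
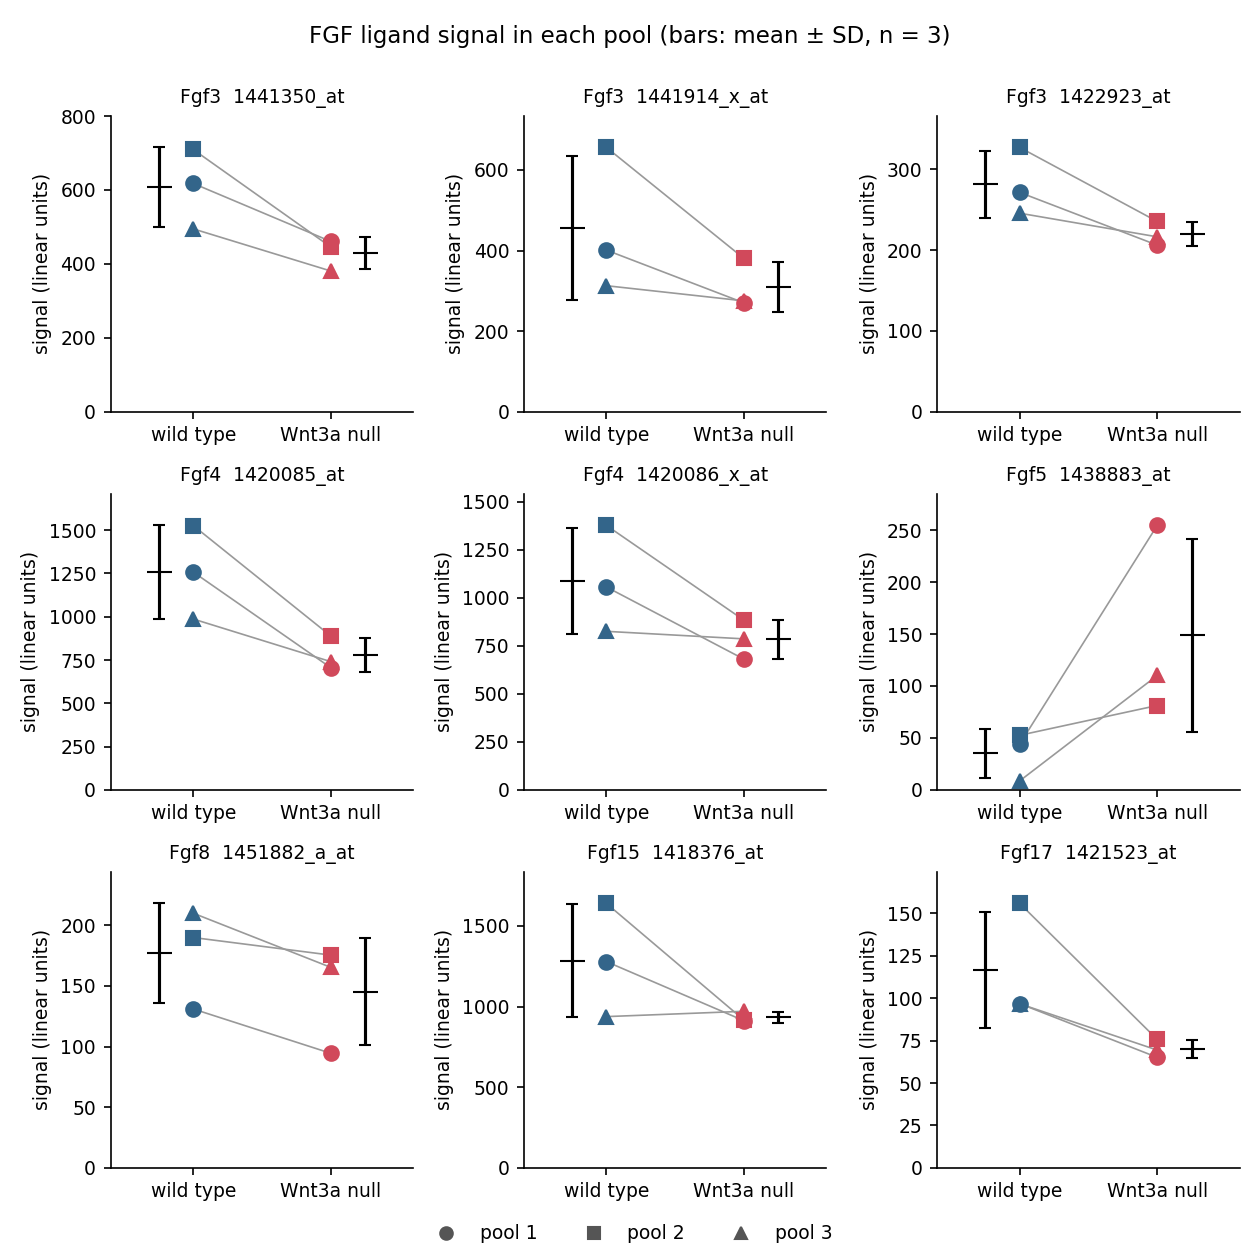
Array signal (linear units, axis from 0) of the 8 ligand probe sets at or above the median signal and of the brighter Fgf5 probe set, in each wild-type (blue) and Wnt3a null (red) pool. Grey lines join pools of one replicate number, and bars give the mean ± SD (n = 3). The Fgf4 probe set 1420085_at spans 987 to 1527 across wild-type and 706 to 889 across null pools, while Fgf5 is higher in all 3 null pools.

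Fgf4 is a ligand of the primitive streak that acts with Fgf8 to maintain presomitic mesoderm. Its probe set 1420085_at had signals of 706, 889 and 741 in null pools 1, 2 and 3, and of 1258, 1527 and 987 in wild-type pools 1, 2 and 3. The lowest wild-type pool thus lay above the highest null pool. The null level was 62.6% of the wild-type level, which is a log2 difference of -0.68 with a 95% interval from -1.30 to -0.05 (limma, unadjusted p = 0.0383, adjusted p = 0.979). A limma fit with replicate as a block and eBayes trend and robust options gave an unadjusted p of 4.08e-04 and an adjusted p of 0.167, and called 0 ligand probe sets, 0.0311% of all probe sets lower and 0.0178% higher.

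A second bright Fgf4 probe set, 1420086_x_at, had 680, 883 and 786 in null and 1056, 1376 and 825 in wild-type pools. Here the groups overlapped, because wild-type pool 3 lay below null pool 2. Its log2 difference was -0.45, with an interval from -1.12 to 0.22. Without wild-type pool 2 the difference was -0.26. The dim Fgf4 probe sets showed no common direction across pairs: 1450282_at had signals of 51.2 to 97.7 and a difference of -0.10, and 1449729_at had signals of 2.72 to 36.9 and a difference of -0.06.

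Fgf3, a ligand required for inner ear formation and for normal growth of the tail, was covered by 3 bright probe sets, and each had a lower mean in null pools. For 1441350_at the null pools had 461, 446 and 381 and the wild-type pools 618, 710 and 495, with no overlap. The log2 difference was -0.49, with a 95% interval from -1.07 to 0.09 (limma, adjusted p = 1.00). The probe set 1422923_at had 206, 235 and 216 against 271, 327 and 246, again without overlap, at a difference of -0.35. The groups overlapped for the third, 1441914_x_at, with 270, 380 and 275 against 401, 656 and 313 and a difference of -0.51, which was -0.22 without wild-type pool 2. All 3 had lower values in each of the 3 pairs, and the pair differences were smallest in pair 3 for each probe set, at -0.38, -0.18 and -0.18.

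Fgf15, the mouse ligand that acts as a hormone of bile acid control in the adult intestine and is made in neural and posterior tissue of the embryo, was measured by 1 probe set. Its null pools were tightly grouped at 912, 916 and 970, while wild-type pools were spread over 1278, 1639 and 937. The highest wild-type signal was 1.75 times the lowest, against 1.06 in null pools. The groups overlapped, since wild-type pool 3 lay between the null values, and pair 3 went the other way with a difference of 0.05. The log2 difference over all pools was -0.43, with an interval from -1.09 to 0.24 (limma, adjusted p = 1.00), and without wild-type pool 2 it was -0.23.

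Fgf8, Fgf17 and Fgf18 form one subfamily of closely related ligands. Fgf8, which is needed for cells to leave the primitive streak, had 94.5, 175 and 165 in null and 131, 190 and 210 in wild-type pools. Pool 1 was lowest in both genotypes, the groups overlapped widely, and each pair was lower in null, by -0.47, -0.11 and -0.34. The log2 difference was -0.31, with an interval from -1.17 to 0.55 (limma, adjusted p = 1.00), so this probe set shows neither a change nor that the level was kept. Without null pool 1 the difference was -0.03.

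Fgf17, a ligand known from midbrain and hindbrain patterning, had a brighter probe set, 1421523_at, whose mean over both genotypes was just inside the median level. Its signals were 65.2, 75.7 and 69.4 in null and 96.8, 156 and 96.8 in wild-type pools. The groups did not overlap, and the null level was 61.7% of the wild-type level, a log2 difference of -0.70 with an interval from -1.37 to -0.03 (limma, unadjusted p = 0.0436, adjusted p = 0.987). Wild-type pool 2 stood well above the other two, and without it the difference was -0.47. With 50 added to each signal before log2 it was -0.45. The dim probe set 1456239_at had a similar difference, -0.66, but its pairs ran from -1.80 to 0.28. Fgf18, a ligand of skeletal growth, was dim at 26.5, 29.0 and 6.997 in null and 43.7, 2.41 and 59.3 in wild-type pools. Its interval from -3.49 to 3.34 leaves its direction unresolved.

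Fgf5, an epiblast ligand that later limits hair growth, was the one ligand with a probe set higher in null pools. The probe set 1438883_at had 255, 81.2 and 110 in null pools and 44.0, 52.5 and 8.63 in wild-type pools, without overlap, where 5.57% of all probe sets were higher without overlap. The log2 difference was 2.28, with an interval from 0.21 to 4.35 (limma, unadjusted p = 0.0364, adjusted p = 0.975). Wild-type pool 3 held the lowest value, and without it the difference was 1.45. With 50 added to each signal before log2, which damps changes of low signals, it was 1.17. The pairs differed by 2.53, 0.63 and 3.67. The other Fgf5 probe set, 1426186_a_at, had signals of 2.71 to 8.33 and a difference of -0.49 with an interval from -1.84 to 0.87, so it did not share the direction.

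**Figure D2:**
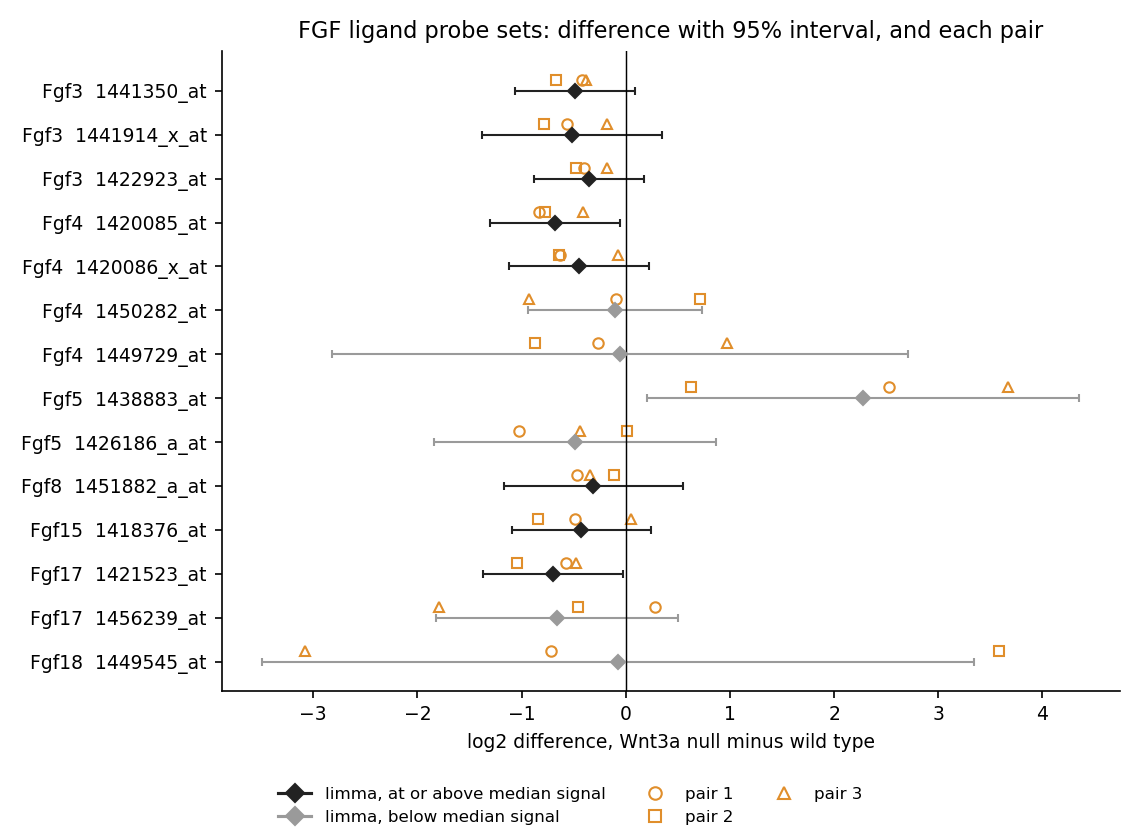
Log2 difference (null minus wild type) of all 14 ligand probe sets, with limma's 95% interval (diamonds, n = 3 pools per genotype; grey for probe sets below the median signal) and the difference of each pair of pools with one replicate number (orange). The 8 black diamonds lie between -0.70 and -0.31, and Fgf5 1438883_at lies at 2.28.

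The spread among wild-type pools followed one order in most ligands. Of the 8 brighter probe sets 7 were highest in wild-type pool 2 and lowest in wild-type pool 3, and the exception was Fgf8. For Fgf17 1421523_at, however, wild-type pools 1 and 3 were nearly equal, at 96.83 and 96.75. The 7 are not independent, since 3 report Fgf3 and 2 report Fgf4. Over the 6 arrays, Pearson's r of the log2 signals between the 7 probe sets of Fgf3, Fgf4, Fgf15 and Fgf17 ran from 0.857 to 0.986, while r of Fgf8 with them ran from 0.12 to 0.52. These points share arrays and amplification, and each r includes the difference between genotypes. Wild-type pool 2 also had the highest summed signal of 9 visceral and yolk sac endoderm markers, at 99216 against 42273 and 54611 in wild-type pools 1 and 3 and 50872 to 71361 in null pools. These 9 markers were lower in 7 and higher in 2, with a median log2 difference of -0.04, and their part in the order of the wild-type pools was not tested.

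The 3 genes whose signals followed each ligand most closely over the 6 arrays differed from ligand to ligand, and Polr2d alone was named for more than 1, for Fgf4 and Fgf17. Among 9689 other genes with a mean log2 signal of at least 7, Fgf4 was matched best by Dll1, a Notch ligand of presomitic mesoderm (r = 0.989), then by Polr2d (0.988) and Dock11 (0.988). Dll1 had 2554, 3416 and 2602 in null and 4598, 5321 and 3842 in wild-type pools, and its log2 difference was -0.68. Fgf3 was matched best by Ndufb2 (r = 0.984), Mknk1 (0.982) and Rbfa (0.973), and Fgf15 by Zfp84 (0.994), Slc35g1 (0.975) and Dhx8 (0.972). Fgf17 was followed by Sec16a (r = 0.996), Hacd2 (0.990) and Polr2d (0.984). The nearest genes to Fgf8 were Tmsb10 (r = 0.997), Snrpb (0.996) and Foxf1 (0.993), each lowest in pool 1 of both genotypes. With 6 arrays and 9689 genes searched, high correlations are found for any gene, and these are given as a description.

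The chromosome 7 ligands were set beside their 10 nearest measured protein-coding neighbours, 5 on each side. On the side of Fgf3, the 5 neighbours had log2 differences of -0.00 for Dhcr7, -0.05 for Cttn, 0.14 for Ppfia1, 0.16 for Fadd and 1.67 for Ano1. Null pool 1 stood far above the rest for Ano1, at 1420 against 203 and 217 in the other null pools and 86.3 to 236 in wild-type pools. On the side of Fgf15, LTO1 had -0.29, Ccnd1, the cyclin D1 gene, -0.13 and Tpcn2 -0.04. The other two were dim. Smim38 had 40.4, 37.3 and 15.8 in null and 45.9, 70.6 and 44.9 in wild-type pools, lower without overlap and in all 3 pairs, and its difference of -0.87 exceeded in size those of the 3 ligands, with an interval from -1.98 to 0.24. Mrgprf had -0.02. Of the 8 brighter neighbours 1, LTO1, did not overlap between genotypes, its null pools at 573 to 710 and its wild-type pools at 734 to 823. Of all 11153 genes with a brightest probe set at or above the median signal, 499 were lower and 613 higher without overlap. None of the 10 passed the limma test, and a difference between ligands and neighbours was not tested.

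**Figure D3:**
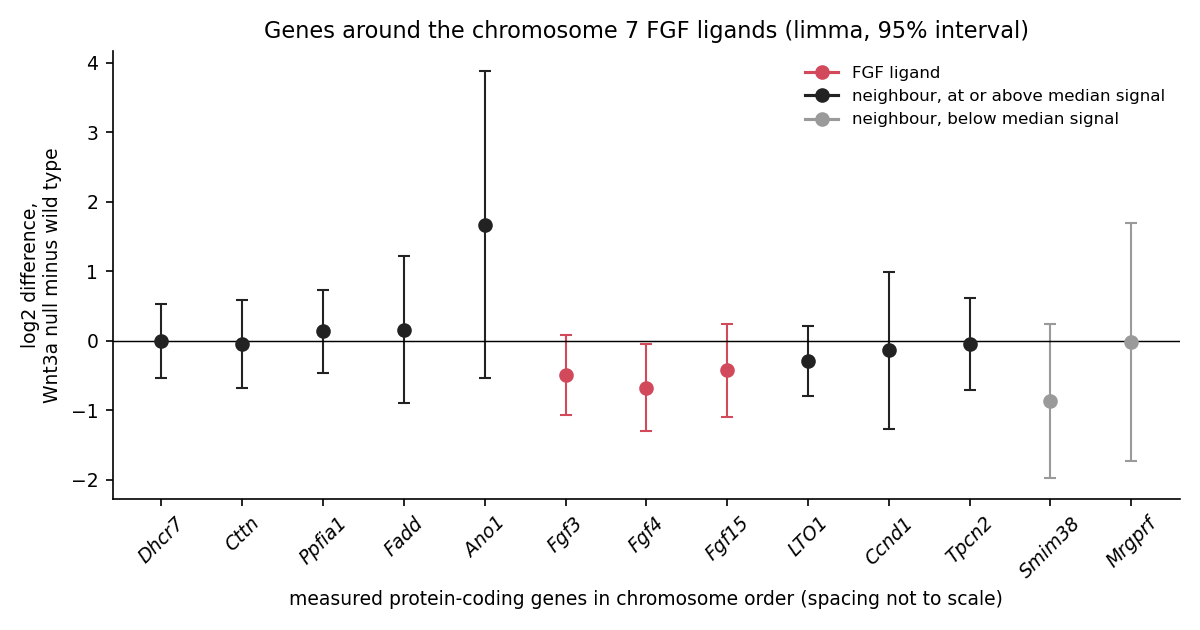
Log2 difference (null minus wild type, limma, 95% interval, n = 3 pools per genotype) of Fgf3, Fgf4 and Fgf15 (red) and of the 5 nearest measured protein-coding genes on each side, in chromosome order, with spacing not to scale. The 3 ligands lie at -0.49, -0.68 and -0.43, and the 8 neighbours at or above the median signal (black) run from -0.29 to 1.67.

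Marker genes of the streak and of other tissues were set beside the ligands. In pooled tissue fewer cells of a type and less RNA per cell cannot be told apart. Beside the lower ligand values, 8 of 12 streak and nascent mesoderm markers were lower in null pools, with a median log2 difference of -0.33. Their summed signal of 9604 to 11801 in null pools did not overlap that of 14914 to 16554 in wild-type pools. Mixl1, a homeobox gene of the streak, had 620, 406 and 436 against 901, 2106 and 633, and Tbx6, a T-box gene of paraxial mesoderm, had 704, 652 and 612 against 1107, 1120 and 1069. Eomes, a T-box gene of streak and early mesoderm, had 434, 162 and 246 against 231, 329 and 150. Its log2 difference was 0.20, that of Mesp1 0.14 and that of Snai1 0.08, while the dim Wnt3 probe set had 2.26 and Wnt3a, as given above, -0.10. Limma called 0 of these markers, and their part in the ligand values was not tested.

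Beside the higher Fgf5 value, 8 of 9 epiblast and pluripotency markers were higher in null pools, with a median log2 difference of 0.61. Their summed signal ran from 19977 to 20640 in null pools, above the 13575 to 19143 of wild-type pools. Dnmt3b made up most of each sum, and its own groups overlapped, with 11373, 14721 and 14419 in null and 9382, 13578 and 9370 in wild-type pools. The separation of the sums therefore does not describe the list as a whole. Otx2, a transcription factor of epiblast and anterior neural tissue, had 1367, 216 and 468 in null and 129, 87.6 and 60.7 in wild-type pools. The dim Tdgf1, a Nodal co-receptor, had 108, 84.9 and 109 against 36.4, 33.2 and 3.44. Null pool 1 was highest for both Fgf5 and Otx2. Pou5f1, the defining gene of pluripotent epiblast, went the other way by a narrow margin, with 3344, 2727 and 1874 against 4352, 3172 and 1398 and a difference of -0.06. Of 6 anterior neural plate markers 4 were higher, 1 of the 6 was at or above the median signal, and the summed signal was 279 to 464 against 194 to 283. Markers of some other tissues were mostly higher in value as well, but not of all. Of 7 node and notochord markers 5 were lower and 2 higher, with a median of -0.46. Of 7 blood and endothelium markers 6 were higher, with a median of 0.74, though Gata1, Hba-x, Pecam1 and Lyl1 were dim. Their summed signal of 1001 to 1273 in null pools did not overlap the 492 to 992 of wild-type pools. Kdr was the largest part of each sum, at 572, 623 and 663 in null and 355, 527 and 464 in wild-type pools. Of 8 heart progenitor and muscle markers 5 were higher, with a median of 0.59 and sums of 2589 to 3032 against 1485 to 2082, also without overlap. Of these, Nkx2-5, Tbx5, Tnnt2 and Myl4 were dim. Of 6 trophoblast markers, of which Cdx2 is also in the streak list, 5 were higher, with overlapping sums of 16144 to 17517 against 14966 to 18533. Elf5, Tpbpa and Esx1 were dim, while Krt18 and Krt8 had log2 differences of 0.11 and 0.06 and Cdx2 had -0.52. Limma called 0 markers of these lists, and their part in the Fgf5 value was not tested.

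In the other 6 lists of FGF pathway genes limma called 0 genes. The medians of 5 of them lay between -0.06 and 0.04, and that of the other secreted ligands, nearly all dim, was -0.72. Single genes, among them Fgfbp3, Fgf9, Etv4 and Flrt2, had differences larger in size than any bright ligand. Among 7 receptors and klotho co-receptors 4 were lower and 3 higher, with a median log2 difference of -0.06 against 0.00 over all genes. Fgfr1, the main receptor of the streak, had 899, 716 and 661 in null and 1012, 548 and 510 in wild-type pools, and Fgfr3 had 604, 738 and 707 against 399, 700 and 560. Neither receptor separated the genotypes. Fgfr4 had a difference of -0.42 at the brightest of its 5 probe sets, with its dim ones from -0.89 to 2.52, and Fgfrl1, a receptor without a kinase domain, had -0.25 at one probe set and 0.10 at the other.

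The 13 measured feedback and target genes split into 6 lower and 7 higher, with a median log2 difference of 0.04. Etv4, a transcription factor induced by FGF signalling, had 207, 136 and 107 in null and 487, 180 and 241 in wild-type pools, which gave a difference of -0.94 (limma, adjusted p = 1.00), lower in each pair but with overlapping groups. A second bright Etv4 probe set had -0.50, with overlapping groups and pairs of 0.02, -0.68 and -0.82. Etv5, a relative of Etv4, had a difference of 0.14. The ERK phosphatase gene Dusp6 stood at 0.08, Spry2 at 0.04 and Spry4 at 0.11, and Dusp4 at -0.33. Flrt2, a membrane protein gene, was higher in value without overlap, at 254, 211 and 272 against 126, 127 and 171 (difference 0.80, limma, adjusted p = 0.869). Its other probe sets had 1.15 and 0.06, the latter dim. The readout genes of the pathway thus had a median near 0, beside lower values of Fgf3, Fgf4, Fgf8 and Fgf15, none past the threshold. For Fgf8 and Fgf15 the groups overlapped, and Fgf17 is left out here because it reached the median level through wild-type pools alone. Whether the ligands and their readouts differ was not tested.

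Among 11 other secreted FGF ligands 10 were dim and 7 had lower values. The exception, Fgf9, a ligand of epithelia and mesothelia, reached the median level through its wild-type pools alone, since it had 52.1, 68.5 and 61.6 in null and 104, 150 and 136 in wild-type pools. Its groups did not overlap, and its log2 difference was -1.09 (limma, unadjusted p = 0.00505, adjusted p = 0.625), while a second Fgf9 probe set had -0.37 with overlapping groups. Of the 4 intracellular FGF homologous factors, which are not secreted, 2 were lower and 2 higher, and Fgf13 alone was bright, with a difference of 0.31 and -0.41 at its dim second probe set.

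Of 13 heparan sulfate and ligand-binding cofactors 9 were lower, with a median log2 difference of -0.05. Fgfbp3, a secreted carrier of FGF ligands, had 89.4, 105 and 197 in null and 699, 151 and 1098 in wild-type pools, a difference of -1.99 (limma, adjusted p = 0.990) with overlapping groups. Sulf2, which trims heparan sulfate, had -0.64 at one probe set and 0.00 and -0.06 at the other two, and Hs6st1, a heparan sulfate sulfotransferase gene, had 0.63. In the kinase cascade 6 of 10 measured genes were lower and 4 higher, with a median of -0.01 and differences from -0.20 to 0.48. Frs3, an adaptor of the receptors, had 0.48, the adaptor Shc1 0.42 and the phosphatase gene Ptpn11 -0.20, each without overlap between genotypes and none past the limma threshold. Among all 11153 genes whose brightest probe set was at or above the median signal, 499 were lower and 613 higher without overlap. Other probe sets of Ptpn11 had 0.12 and, at a dim one, -0.80, both with overlapping groups, so its direction was not shared by every probe set.

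**Figure D4:**
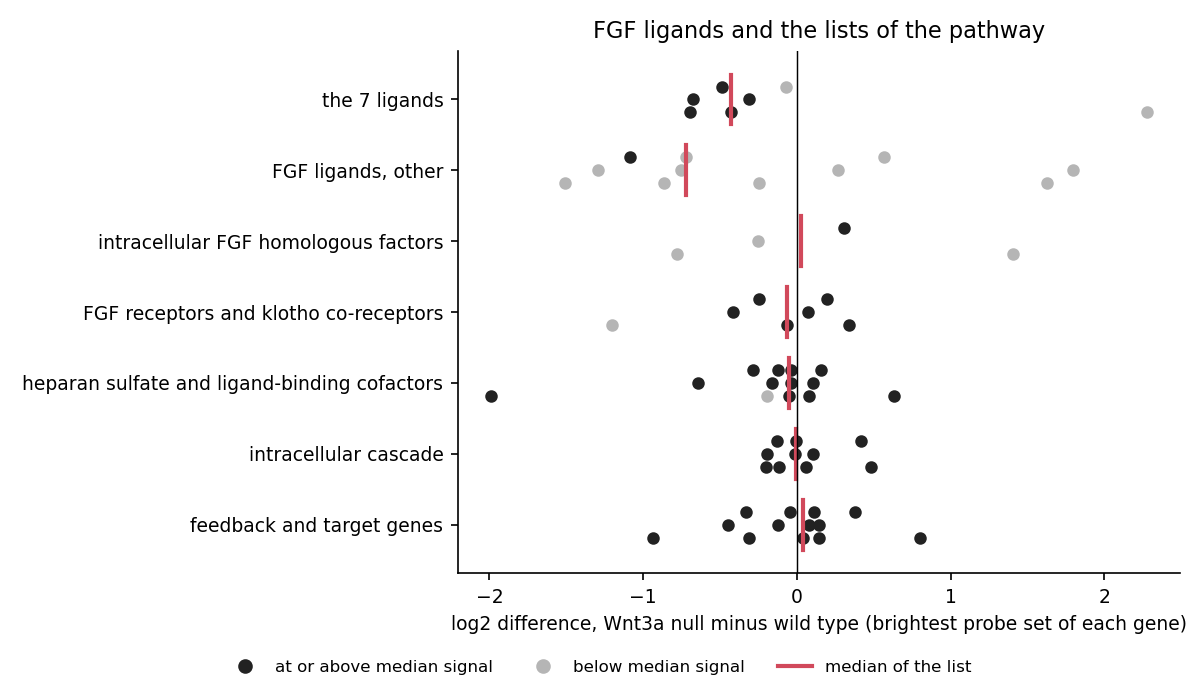
Log2 difference (null minus wild type) of each gene of the FGF pathway by its brightest probe set (black at or above the median signal, grey below), grouped by list, with the list's median in red. The 7 ligands have a median of -0.43, with Fgf5 at 2.28, the 11 other ligands are nearly all dim, and the 13 feedback and target genes have a median of 0.04.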

How the data were processed

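The authors deposited linear intensities, 1 for every probe set on every array. RMA is named in the submitters' processing notes, yet all 6 arrays share a mean of 500 once 2% of values is trimmed from either tail, while their distributions differ. Such values have the form of signals scaled to a common target. Per the labels' protocols, 30 to 50 ng of RNA of each embryo was amplified, and amplified RNA of 3 embryos (600 ng) was pooled per array. Deposited intensities were turned to log2 without a floor or offset. Of 45101 probe sets, 64 controls were left out. Gene symbols came from the platform annotation: 34945 probe sets had 1 symbol, 932 several and 9160 were not listed, and 34741 of those with 1 symbol matched RefSeq by gene ID. A gene in a list was represented by its brightest probe set.

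Null was compared with wild type by limma 3.58.1 in R 4.3.3 (lmFit, eBayes, two-sided), over all probe sets. The main fit had no block. Arrays sharing a replicate number deviated together from their genotype's mean, with correlations of 0.422, 0.454 and 0.282 over 18088 probe sets whose mean log2 exceeded 7. The numbers were therefore treated as pairs in the pair differences and the block fits, but not in the main fit. Over all probe sets these correlations were 0.0537, 0.0524 and 0.0338, under the bound of 0.1, so the pairing rests on the brighter probe sets alone. The fit was tested on simulated data.

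The members, lists and motifs were chosen with earlier results of these data known. Genes named beside the members were, per pathway list, up to 3 bright genes with the smallest p, and, per bright member, the 3 genes with the highest Pearson correlation. Named after their values were seen were Fgfr1, Etv5, Dusp6, Spry2, Spry4, the chromosome 7 neighbours and the tissue markers, Wnt3a included. Alternatives were a block, trend and robust options, both together, a filter on dim probe sets, log2(signal + 50), median centring, quantile normalization, 1 probe set per gene, other thresholds and leaving out each array. The number of arrays limits the precision.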

Additional observations from a re-analysis of the deposited data

How the results depend on the processing

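The 8 ligand probe sets at or above the median signal kept a lower value in null pools in all 109 combinations of a probe set and an alternative (95 of 95 without Fgf17 1421523_at, which reached that level in wild type only, an alternative chosen after seeing the data that left 7 of 7 lower), and 0 of 14 ligand probe sets passed in any of the fits, the replicate block included. The block, the eBayes options, the filter on dim probe sets and 1 probe set per gene leave the log2 difference as it was. Their combinations could therefore not change direction, and only the offset, the scalings and leaving out arrays could. At an unadjusted p under 0.05, 3 ligand probe sets and 2273 of all probe sets passed. Over all probe sets 0 were called by the planned fit and by the replicate block alone, 1 with eBayes trend and robust options, and 22 with the replicate block and those options together. Leaving out single arrays moved the difference of Fgf4 1420085_at between -0.84 and -0.52, of Fgf17 1421523_at between -0.81 and -0.47, of Fgf4 1420086_x_at between -0.63 and -0.26, of Fgf3 1441350_at between -0.63 and -0.37, of Fgf3 1441914_x_at between -0.75 and -0.22, of Fgf3 1422923_at between -0.44 and -0.24, of Fgf15 between -0.63 and -0.23, and of Fgf8 between -0.51 and -0.03. Dim probe sets changed sign: Fgf4 1450282_at ran from -0.32 to 0.11, Fgf4 1449729_at from -1.18 to 0.70 and Fgf18 from -1.54 to 0.77, and the cause was not tested. The Fgf5 probe set 1438883_at ran from 1.45 to 2.75 when arrays were left out, and log2(signal + 50) gave 1.17 for it and -0.45 for Fgf17 1421523_at. Signals near the floor of the array, and 3 pools per genotype, limit what can be said of Fgf5 and Fgf18. The replicate block changed no call of a ligand probe set, and its smallest adjusted p over all probe sets was 0.778. Scaling by median centring or quantiles moved the median difference of all probe sets to -0.04 and -0.01, from 0.01.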
